A study of Homo sapiens with 8 samples.

Results

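The mitosis and spindle genes described here are a list of 42 genes whose products carry a cell into, through and out of mitosis. They were taken by symbol, each from the probe set with the highest mean signal over all arrays among probe sets assigned to exactly 1 gene. Of the 42, 41 could be measured in this way. PTTG1, which encodes the separase inhibitor securin, had a probe set shared with another gene and is given no value. All 41 passed the filter on dim signals and stood among 12845 genes tested of 18132 measured. The cells were NB4, an established human line of acute promyelocytic leukaemia that carries the PML-RARA fusion. Lentivirus, at a multiplicity of infection of 10, brought in a scrambled control or 1 of 3 short hairpins against CDK2, numbered shCDK2 #1, #3 and #10, and RNA was taken at day 2, which the labels call early, or day 5, which they call late. There were 8 Affymetrix arrays, 1 for each construct and day, so that #1, #3 and #10 served as the repeats of the knockdown within a day. No array came from untransduced cells, and nothing in the labels said that arrays came from separate cultures, so p-values reflect only the spread among these 8 arrays, which may be technical.

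Transcripts of mitotic genes are scarce in early interphase and accumulate towards G2 and mitosis. Cyclin B bound to CDK1 starts mitosis, the polo-like and Aurora kinases build the spindle, and the spindle checkpoint holds the anaphase-promoting complex back until every kinetochore is attached. CDK2 acts before this, at the start and during S phase, and cells that leave the cycle as they mature are known to lower mitotic transcripts. Many of these promoters carry a cell cycle genes homology region (CHR), which binds complexes of MuvB with MYBL2 and FOXM1, near CCAAT boxes bound by NF-Y.

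To show where those letters lie, the 100 bases before the annotated start are given for the 5 members with the largest decreases in hairpin #10 and the 3 with changes nearest 0. These were drawn from the measured members with a single start in the RefSeq promoter table (build GRCh38.p14). Capitals mark TTTGAA or TTTAAA, the letters of a CHR, and CCAAT, each on either strand, so that TTCAAA and ATTGG are the same letters read on the other strand.
CDC20 (chr1:43358881-43358980, plus strand): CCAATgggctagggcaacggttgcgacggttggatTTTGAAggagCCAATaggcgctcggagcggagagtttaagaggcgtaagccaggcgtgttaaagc
CCNB1 (chr5:69167050-69167149, plus strand): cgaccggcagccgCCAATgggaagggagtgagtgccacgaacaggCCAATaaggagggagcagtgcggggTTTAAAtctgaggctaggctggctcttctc
PLK1 (chr16:23678789-23678888, plus strand): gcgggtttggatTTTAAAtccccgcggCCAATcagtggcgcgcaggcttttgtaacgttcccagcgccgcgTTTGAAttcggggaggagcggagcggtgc
KIF20A (chr5:138179012-138179111, plus strand): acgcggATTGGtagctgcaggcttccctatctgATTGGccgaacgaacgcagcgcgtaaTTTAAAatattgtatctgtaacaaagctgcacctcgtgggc
CENPA (chr2:26785956-26786055, plus strand): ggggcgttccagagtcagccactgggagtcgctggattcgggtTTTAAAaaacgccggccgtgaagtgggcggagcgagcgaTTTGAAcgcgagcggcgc
NUSAP1 (chr15:41332781-41332880, plus strand): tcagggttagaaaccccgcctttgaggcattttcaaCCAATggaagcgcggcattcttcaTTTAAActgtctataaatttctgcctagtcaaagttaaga
MKI67 (chr10:128126424-128126523, minus strand): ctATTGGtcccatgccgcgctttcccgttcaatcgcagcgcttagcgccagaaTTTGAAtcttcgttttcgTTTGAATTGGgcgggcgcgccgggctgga
NUF2 (chr1:163321854-163321953, plus strand): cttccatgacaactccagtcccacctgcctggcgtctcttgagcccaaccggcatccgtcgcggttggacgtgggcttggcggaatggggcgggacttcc

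In the MKI67 stretch the second TTTGAA and an ATTGG overlap and share letters. Both sets hold the letters. All 5 of the genes with the largest decreases carry TTTGAA or TTTAAA in the stretch shown, and so do NUSAP1 and MKI67. NUF2 does not, but TTTGAA stands after its start, within the longer window described below. MKI67 stands near 0 only by its brightest probe set. Its further probe sets above the filter value had mean differences of -0.52 to -0.75 in #10. The promoter table, with windows from 250 bases before to 50 bases after each start, held 35 measured members in 44 windows and lacked 6 (AURKA, BIRC5, BUB3, TPX2, TTK and UBE2C). TTTGAA stood in 28 of the 44 windows against 15.2% of all 35116 windows, TTTAAA in 12 against 12.2%, and CCAAT in 31 against 34.6%. Either CHR spelling stood in 33 of the 44 against 24.0% of all windows. By gene, 32 of 35 members had a window with either spelling and a median change in hairpin #10 of -0.42 log2, and the 3 without had -0.38. Among all tested genes in the table the medians were -0.07 for 2227 genes with either spelling and -0.08 for 8155 without. By TTTGAA alone the members' medians were -0.34 with it (27 genes) and -0.57 without (8), by TTTAAA alone -0.49 with it (12) and -0.34 without (23), and by CCAAT -0.46 with it (28) and -0.27 without (7). These are descriptions with no test, and a match of letters is not a binding site.

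CDK2, the target, was checked first, since it bears on every direction given below. Its brightest probe set read, on the log2 scale, 9.10 in scramble on day 2, 7.78 in #1, 9.03 in the array labelled #3 and 7.54 in #10. At day 5 it was 8.19 in the array labelled scramble, 7.89 in #1, 7.72 in #3 and 8.09 in #10. By this probe set the array labelled #3 at day 2 lay near scramble, and the array labelled scramble at day 5 was low for a control. Another probe set read 7.85 in scramble at day 5 against 9.19 at day 2. The dimmest read 7.53 in scramble at day 5 and 7.51 at day 2. In it #1, #3 and #10 at day 5 were lower (7.34, 7.23 and 7.30), so it did not show a low control. For the scramble array the doubt thus rests on the brighter probe sets. Values that use the arrays labelled #3 at day 2 and scramble at day 5 carry that doubt. The fitted comparisons are given without them where the call or the size differed, and day 5 differences are also summarised against the scramble array of day 2, which mixes the days, an alternative chosen after seeing the data. In limma the CDK2 change was -0.81 log2 in #1, -0.27 in #3 and -0.83 in #10 over both days (SE 0.42 each, adjusted p = 1.00, 0.814 and 0.321), and none passed.

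Array medians over all probe sets lay between 6.30 and 6.43 log2, and the difference between 3' and 5' probe sets was 0.51 to 0.75 for GAPDH and 1.55 to 2.06 for actin. Among 28 pairs of arrays none was identical (Pearson r from 0.964 to 0.994). The promyelocyte list (6 of 7 genes measured) summed to between 14.6 and 14.9 in all arrays, with members going both ways in #10 at day 2. There, against scramble of that day, MPO stood at 13.4 against 14.4, PRTN3 at 9.99 against 11.2, CTSG at 8.02 against 9.29 and ELANE at 5.89 against 6.31, while AZU1 stood at 10.5 against 9.28 and ANPEP at 13.5 against 12.5. ELANE, at 5.83 to 6.35 over all arrays, lay near the filter value of 5.83. Markers of maturing myeloid cells moved with some hairpin arrays. The summed signal of the granulocyte maturation list (7 of 9 genes measured) was 11.5 and 12.3 log2 in the scramble arrays, 12.1 and 12.6 in #1, 11.5 in the array labelled #3 at day 2, and 14.3 in #3 at day 5. It was 13.7 and 14.1 in #10. MMP9 was the brightest gene of this sum there (12.73 and 13.75) and in #3 at day 5 (13.77). The members went both ways in #10 at day 5. Against scramble of that day, ITGAM stood at 10.20 against 8.14, ITGAX at 9.39 against 7.77 and CAMP at 7.56 against 6.68. CYBB stood at 9.60 against 10.63, CSF3R at 8.60 against 8.63 and LTF at 4.97 against 5.24. For the monocyte and macrophage list (5 of 5) it was 8.75 and 9.14 in scramble, 9.05 and 9.11 in #1, 9.03 in the array labelled #3 at day 2, 10.5 in #3 at day 5, and 9.86 and 12.1 in #10. The lymphoid sum (4 of 5) was 9.43 and 9.57 in scramble, and 11.4 and 11.0 in #10, where CD3D passed, and 9.58 to 9.90 in the other hairpin arrays. Of the 3 lymphoid genes tested the other two were slightly lower on average in #10, CD3E at 6.14 and 6.01 against 5.86 and 6.38 in scramble, and CD79A at 7.33 and 7.25 against 7.29 and 7.67. In limma, against scramble, MMP9 rose by 2.61 in #10 (adjusted p = 0.046), CAMP by 1.07 (0.043), CD86 by 1.70 (0.026), CD68 by 1.29 (0.049) and CD3D by 2.25 (0.013). LTF, MS4A1 and KLF1 lay below the filter value. The erythroid list (3 of 5) and the fibroblast and epithelial list (5 of 5) stayed between 7.67 and 8.28 and between 8.90 and 9.31 in all arrays. The 3 arrays with the highest sums of the granulocyte list were also those in which the mitosis and spindle genes were lowest, and the part of these cells or states in the values below was not tested. In such bulk RNA, fewer dividing cells and less RNA of these genes per cell cannot be told apart.

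Mitosis and spindle genes were lower in both arrays of hairpin #10 and in #3 at day 5, and near scramble elsewhere. Against that day's scramble array, the median difference over the 41 genes at day 2 was -0.09 log2 in #1, -0.02 in the array labelled #3 and -0.52 in #10. At day 5 it was 0.01 in #1, -0.33 in #3 and -0.34 in #10. Over all 12845 genes the medians of the same arrays ran from -0.11 to 0.03. In #10 at day 2, 23 of the 41 genes were lower by more than 0.5 log2, against 14.98% of all genes. In #3 at day 5 they were 11 against 16.4%, and in #10 at day 5 they were 16 against 8.01%. The other hairpin arrays had 1 in #1 at day 2 (6.84% of all genes), 2 in the array labelled #3 at day 2 (8.84%) and 0 in #1 at day 5 (4.53%). Against the scramble array of day 2, the day 5 medians were 0.04 in #1, -0.32 in #3 and -0.42 in #10, with 1, 13 and 14 genes lower by more than 0.5 log2 (9.16%, 10.98% and 14.08% of all genes). Lower in all 6 hairpin arrays were 6 genes, BUB1, KIF14, KIF20B, CENPA, CENPE and CDC20 (8.31% of all genes), and 15 more were lower in 5 (15.9% of all genes). These counts go by sign alone, and BUB1 differed by only -0.016 in the array labelled #3 at day 2 and -0.004 in #3 at day 5. These differences compare single arrays and have no test of their own.

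**Figure D1:**
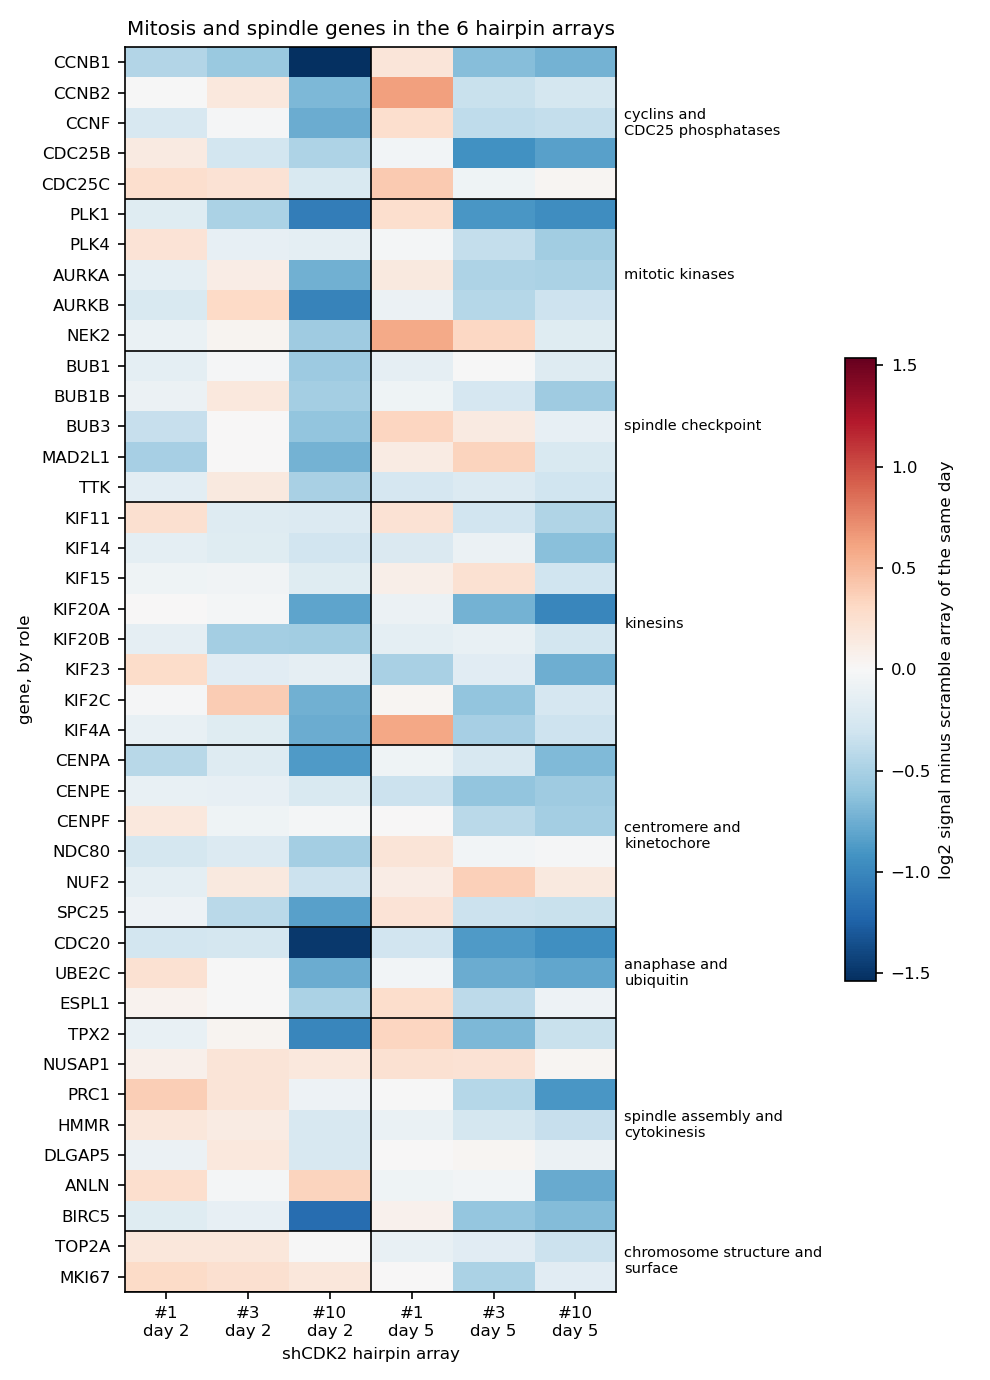
Log2 signal minus that of that day's scramble array (colour), for the 41 mitosis and spindle genes by role (rows) in the 6 hairpin arrays (columns). The columns for #10 at both days and for #3 at day 5 are mostly blue (38, 38 and 34 of 41 genes lower), those for #1 and for the array labelled #3 at day 2 are mixed.

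**Figure D2:**
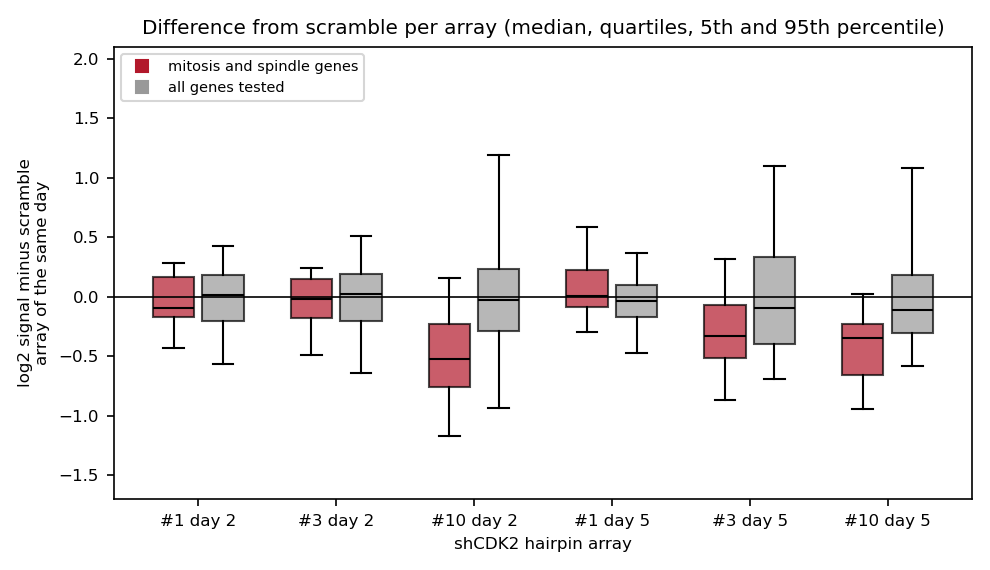
Log2 signal minus that of that day's scramble array in each hairpin array, as the median (line), quartiles (box) and 5th and 95th percentiles (whiskers), for the 41 mitosis and spindle genes (red) and all 12845 genes tested (grey). The red boxes sit below 0 in #10 at day 2 (median -0.52), #3 at day 5 (-0.33) and #10 at day 5 (-0.34), where the grey medians are -0.03, -0.09 and -0.11.

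Among the cyclins and CDC25 phosphatases (5 genes), the median difference was -0.69 in #10 at day 2, -0.37 in #10 at day 5 and -0.39 in #3 at day 5. CCNB1, the cyclin that with CDK1 drives entry into mitosis, had signals of 11.39 in scramble, 10.94 in #1, 10.82 in the array labelled #3 and 9.86 in #10 at day 2. Day 5 gave 11.09 in the array labelled scramble, 11.27 in #1, 10.44 in #3 and 10.36 in #10. Both #10 arrays and both #3 arrays lay below both scramble arrays, and #1 overlapped them. CCNB2, the partner cyclin, differed by -0.69 and -0.27 in #10 and by 0.63 in #1 at day 5. CCNF, an F-box protein of the ubiquitin system, differed by -0.76 and -0.37 in #10. CDC25B, a phosphatase that activates CDK1, differed in #10 by -0.47 at day 2 and -0.83 at day 5, but its day 5 value was -0.48 against the scramble array of day 2. CDC25C, of the same family, differed by -0.23 and 0.03 in #10, but by -0.59 and 0.07 in its dimmer probe set.

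Among the mitotic kinases (5 genes) the median difference was -0.73 in #10 at day 2, -0.49 in #10 at day 5 and -0.44 in #3 at day 5. PLK1, the polo-like kinase of spindle assembly and mitotic exit, had signals at day 2 of 9.06 in scramble, 8.88 in #1, 8.57 in the array labelled #3 and 7.998 in #10. At day 5 they were 8.91 in the array labelled scramble, 9.17 in #1, 8.01 in #3 and 7.96 in #10. PLK1 separated #3 at both days and #10 at both days from scramble and from #1. AURKA, the Aurora kinase of spindle poles, stood at 11.05, 10.90, 11.16 and 10.32 at day 2, in the order scramble, #1, the array labelled #3 and #10. At day 5 it stood at 11.05, 11.21, 10.58 and 10.56 in the same order of constructs, so that only #3 at day 5 and both #10 arrays were below every other array. AURKB, the kinase of the chromosomal passenger complex, differed by -1.03 in #10 at day 2 and -0.31 at day 5, and by 0.30 in the array labelled #3 at day 2. PLK4, which controls centriole duplication, differed by -0.15 and -0.54 in #10, and NEK2, a kinase of centrosome separation, by -0.54 and -0.19.

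In the spindle checkpoint group (5 genes) the medians were -0.56 in #10 at day 2 and -0.23 at day 5, with 0.00 in #3 at day 5. BUB1B, a subunit of the mitotic checkpoint complex, had signals of 9.99 in scramble, 9.90 in #1, 10.15 in the array labelled #3 and 9.47 in #10 at day 2. Day 5 gave 10.03 in the array labelled scramble, 9.97 in #1, 9.78 in #3 and 9.49 in #10. The #10 arrays were the lowest on each day. BUB3, which brings checkpoint proteins to kinetochores, stood at 11.22, 10.87, 11.23 and 10.61 at day 2 and at 11.05, 11.37, 11.18 and 10.92 at day 5, in the order scramble, #1, #3 and #10 as labelled. Its #10 arrays lay below both scramble arrays, but #1 at day 2 lay between them. MAD2L1, which binds and restrains CDC20, differed by -0.72 and -0.23 in #10, by -0.51 in #1 at day 2 and by 0.34 in #3 at day 5. TTK and BUB1, the checkpoint kinases, differed in #10 by -0.50 and -0.30 and by -0.56 and -0.20. Against the scramble array of day 2, the 5 genes in #3 at day 5 ran from -0.27 to -0.04, and MAD2L1 in #10 at day 5 was at -0.62.

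Of the kinesins (8 genes), motors that slide, focus or bundle spindle microtubules, all were lower than scramble in each #10 array, by medians of -0.41 at day 2 and -0.39 at day 5. KIF20A, a motor of the central spindle and cytokinesis, had signals of 9.06 in scramble, 9.06 in #1, 9.03 in the array labelled #3 and 8.25 in #10 at day 2. Those of day 5 were 9.34 in the array labelled scramble, 9.25 in #1, 8.61 in #3 and 8.33 in #10. KIF20A was thus at the scramble level in every day 2 array but #10, and both #3 and #10 were below at day 5. KIF2C, a microtubule depolymerase of centromeres, stood at 10.38, 10.36, 10.77 and 9.65 at day 2 and at 10.31, 10.34, 9.70 and 10.05 at day 5, in the order scramble, #1, #3 and #10. The array labelled #3 at day 2 had the highest KIF2C signal of all, and #3 at day 5 nearly the lowest. KIF4A, a chromokinesin, differed by -0.76 and -0.32 in #10. KIF14, a kinesin of cytokinesis, differed by -0.29 at day 2 and -0.65 at day 5 in #10, and by -0.67 at day 5 against the scramble array of day 2. KIF23, also of cytokinesis, differed by -0.14 and -0.75, and KIF11, which pushes spindle poles apart, by -0.21 and -0.46, where the other scramble array gave -0.42 and -0.30 at day 5. KIF15, a motor that can stand in for KIF11, differed by -0.19 and -0.30 and KIF20B by -0.53 and -0.28.

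In the centromere and kinetochore group (6 genes) the medians in #10 were -0.43 on both days. CENPA, the histone H3 variant that marks centromeres, had signals of 9.94 in scramble, 9.52 in #1, 9.74 in the array labelled #3 and 9.08 in #10 at day 2. On day 5 it stood at 9.87 in the array labelled scramble, 9.80 in #1, 9.63 in #3 and 9.19 in #10. CENPA was below both scramble arrays in all 6 hairpin arrays, by most in #10. CENPE, the kinetochore kinesin, was likewise lower in all hairpin arrays, by -0.12 to -0.60. SPC25, of the NDC80 complex that grips microtubules, differed by -0.83 and -0.34 in #10, whereas its partners NDC80 and NUF2 differed by -0.52 and -0.33 at day 2 and by -0.02 and 0.15 at day 5 (-0.40 and -0.24 against the scramble array of day 2). CENPF, a large kinetochore protein, differed by -0.03 and -0.52, but by -0.96 and -0.60 in its dimmer probe set.

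The anaphase and ubiquitin group (3 genes measured) had the lowest medians, -0.76 and -0.79 in #10 and -0.76 in #3 at day 5. CDC20, the activator of the anaphase-promoting complex, had signals of 11.24 in scramble, 10.96 in #1, 10.97 in the array labelled #3 and 9.76 in #10 at day 2. At day 5 they were 11.00 in the array labelled scramble, 10.70 in #1, 10.13 in #3 and 10.06 in #10. All 6 hairpin arrays of CDC20 were below both scramble arrays, with #10 and #3 at day 5 the lowest. UBE2C, the ubiquitin-conjugating enzyme of that complex, differed by -0.76 and -0.79 in #10, by 0.00 in the array labelled #3 at day 2 and by -0.76 in #3 at day 5. ESPL1, the separase that cuts cohesin, differed by -0.48 and -0.08 in #10.

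Spindle assembly and cytokinesis genes (7) had medians of -0.24 and -0.36 in #10. BIRC5, survivin of the chromosomal passenger complex, had signals of 10.79 in scramble, 10.61 in #1, 10.67 in the array labelled #3 and 9.62 in #10 at day 2. At day 5 they were 10.70 in the array labelled scramble, 10.77 in #1, 10.11 in #3 and 10.04 in #10, so that #10 and #3 at day 5 did not overlap the other arrays. PRC1, which bundles the central spindle, stood at 10.64, 11.03, 10.84 and 10.57 at day 2 and at 11.33, 11.33, 10.89 and 10.44 at day 5, in the order scramble, #1, #3 and #10. Its scramble arrays differed by 0.69 from each other, so that #10 at day 5 was at -0.89 against the one and -0.20 against the other. TPX2, an activator of AURKA, differed by -0.996 and -0.34 in #10. NUSAP1, a microtubule-bundling protein, was by its brightest probe set the single member above that day's scramble array in all 6 hairpin arrays, by 0.03 to 0.23. Its further probe sets above the filter value went both ways in #10. The brighter differed by 0.02 and 0.13 and the dimmer by -0.21 and -0.10. ANLN, the contractile-ring scaffold, differed by 0.34 in #10 at day 2 and by -0.77 at day 5, or -0.35 against the scramble array of day 2. HMMR and DLGAP5, both spindle proteins, differed by -0.24 and -0.36 and by -0.24 and -0.09.

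**Figure D3:**
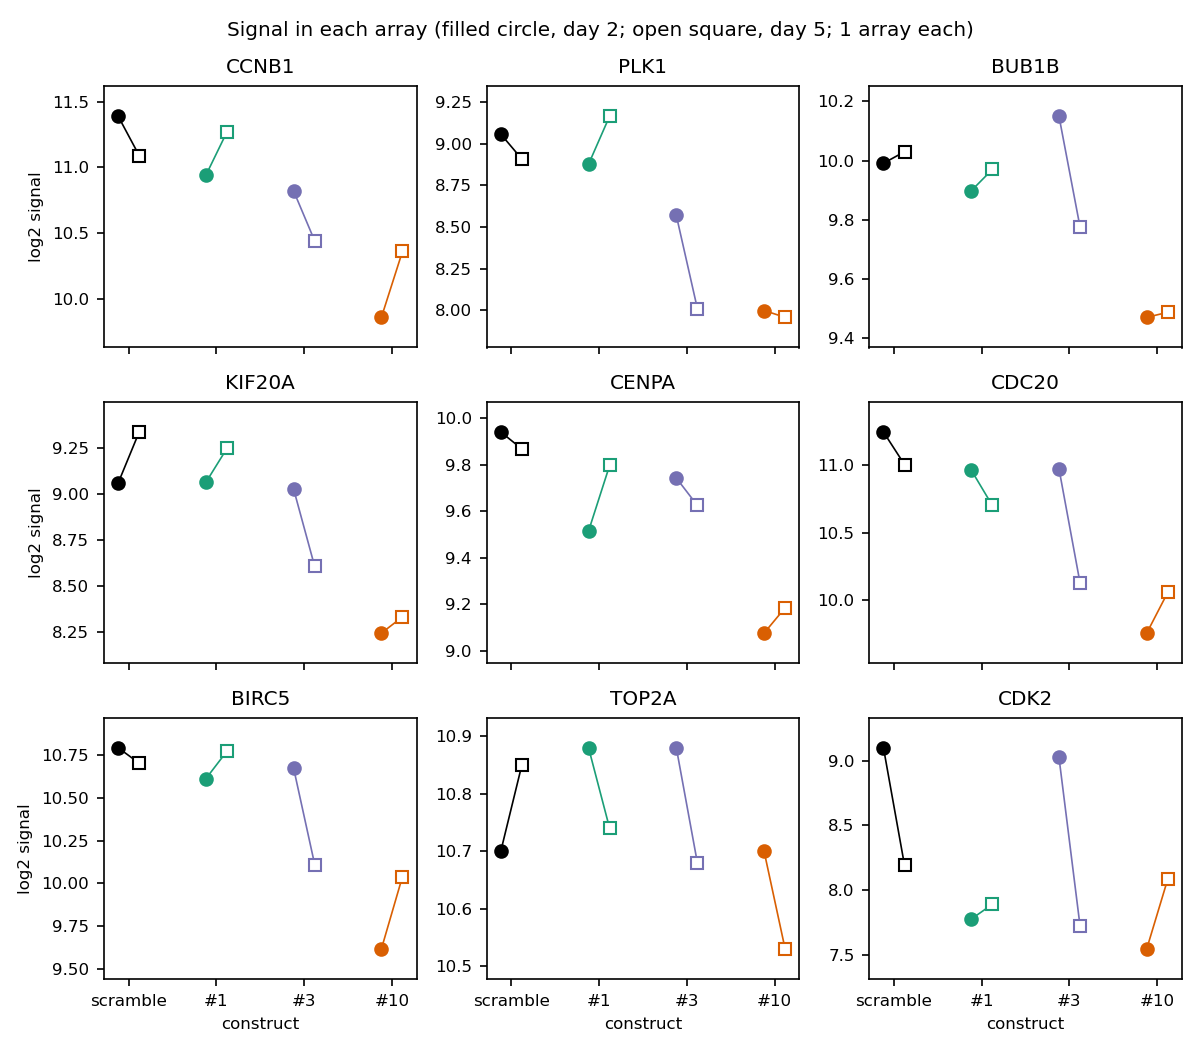
Log2 signal (vertical axis, a range of its own in each panel) by construct at day 2 (filled circle) and day 5 (open square), 1 array per point, for the member with the largest change in hairpin #10 in each role group and for CDK2. CCNB1, PLK1, CDC20 and BIRC5 are lowest in #10 and in #3 at day 5, while CDK2 at 9.03 in the array labelled #3 at day 2 is near scramble.

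Of the genes of chromosome structure, TOP2A, the topoisomerase that untangles chromatids, had signals of 10.70 in scramble, 10.88 in #1, 10.88 in the array labelled #3 and 10.70 in #10 at day 2. At day 5 they were 10.85 in the array labelled scramble, 10.74 in #1, 10.68 in #3 and 10.53 in #10, a range of 0.35 log2 over all arrays. MKI67, the proliferation marker Ki-67 of the chromosome surface, depended on the probe set. The brightest, which stands for the gene, differed by 0.17 at day 2 and -0.18 at day 5 in #10, a mean of 0.00. Its 4 further probe sets above the filter value had mean differences of -0.52, -0.55, -0.69 and -0.75 in #10. Among all members there were 52 further probe sets above the filter value, of 22 genes, and 51 of them were lower in #10 (median -0.49). For CDC20 the further probe sets had -0.92 and -0.31 against -1.21 for the one used, and for PLK1 -0.73 and -0.23 against -1.01. MKI67 was singled out after its values were seen.

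Hairpin #10 against scramble, with the 2 days as its repeats, asked how far the genes differed under this hairpin. Of the 41 genes 40 were lower, with a median of -0.44 log2, against 61.3% of all genes tested and a median of -0.09. In limma 0 of the 41 passed an adjusted p under 0.05 over all genes (percent of all genes passing, 2.01, with 217 higher and 41 lower, and 80 of 82 higher after median centring). At an unadjusted p under 0.05, 12 were lower, against 9.53% of all genes. CDC20 had a change of -1.21 (SE 0.27, 95% confidence interval -1.83 to -0.59, adjusted p = 0.069), which is 43.2% of the scramble level. CCNB1 had -1.13 (SE 0.26, interval -1.74 to -0.53, adjusted p = 0.074, 45.6%) and PLK1 had -1.01 (SE 0.23, interval -1.54 to -0.47, adjusted p = 0.073, 49.8%). BIRC5 at -0.92, KIF20A at -0.91, UBE2C and CENPA at -0.77, AURKB and TPX2 at -0.67, CDC25B at -0.65 and AURKA at -0.61 followed, and none of these passed. At the other end were NUSAP1 (0.09), MKI67 (0.00), NUF2 (-0.09), CDC25C (-0.10), TOP2A and DLGAP5 (-0.17 each). Both #10 arrays lay below both scramble arrays for 36 of the 41 genes, where the same held for 32.9% of all genes.

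The count of 0 depended on the #3 arrays through the pooled spread, and did not rise when either scramble array was left out. When either #3 array was left out, the #10 changes were the same by construction and 7 genes passed in limma: CDC20 (adjusted p = 0.026), KIF20A (0.024), PLK1 (0.028), BIRC5 and UBE2C (0.037 each), CENPA (0.041) and CCNB1 (0.043), where 7.47% of all genes passed. Without both arrays whose CDK2 level went against the label, an alternative chosen after seeing the data, CCNB1 stood at -1.49 and CDC20 at -1.35. That setting leaves 1 scramble array, of day 2, and 1 residual degree of freedom, so it gives no replicated call. CENPA alone passed in limma when probe sets of a gene were averaged (-0.85, adjusted p = 0.047, 1.81% of all genes). Without #10 at day 5, CDC20 stood at -1.58, which rests on 1 array of #10.

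**Figure D4:**
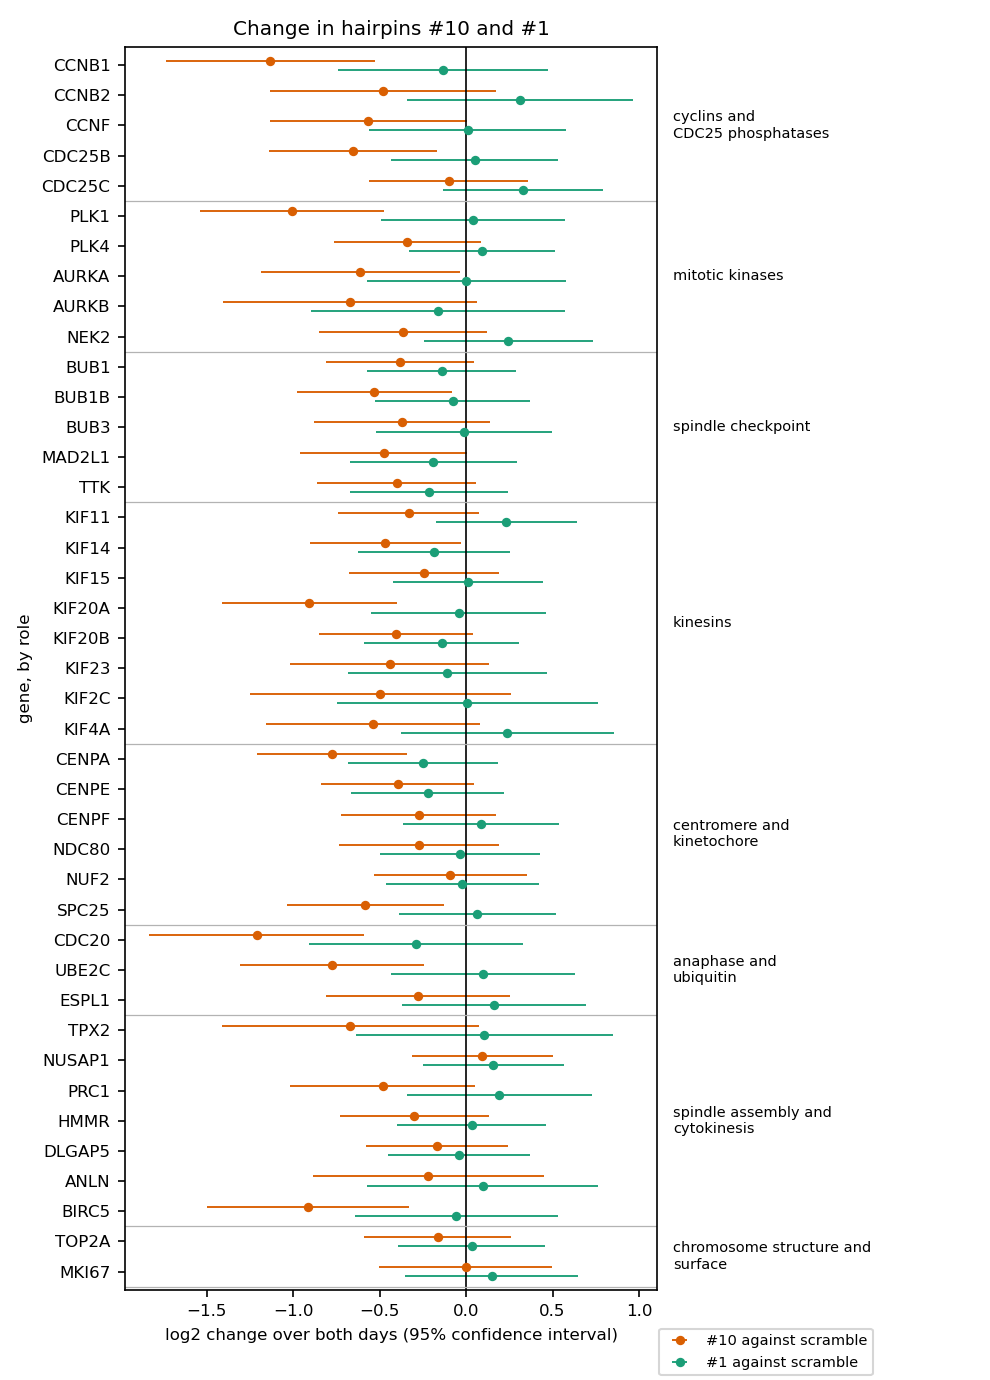
Log2 change over both days against scramble in hairpin #10 (orange) and hairpin #1 (green) for the 41 genes by role, with 95% confidence intervals from limma. Of the orange points 40 lie below 0, from -1.21 for CDC20 to 0.09 for NUSAP1, and the green points lie between -0.29 and 0.33.

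Under hairpin #1 the genes stood near scramble. CDK2 in #1 read 7.78 at day 2 and 7.89 at day 5, where the arrays labelled scramble read 9.10 and 8.19. A link between the CDK2 signal and these genes was not tested. Of the 41 genes 18 were lower (53.7% of all genes), the median was 0.01 (all genes -0.02), and changes ran from -0.29 to 0.33. The largest were CDC25C at 0.33 (SE 0.20, adjusted p = 1.00), CCNB2 at 0.31 (SE 0.28, 1.00) and CDC20 at -0.29 (SE 0.27, 1.00) in limma. None passed (0% of all genes), and 0 were lower at an unadjusted p under 0.05 (0.958% of all genes). Both #1 arrays lay below both scramble arrays for 7 genes, against 17.6% of all genes: AURKB, BUB1B, TTK, KIF14, CENPA, CENPE and CDC20. With intervals such as -0.49 to 0.57 for PLK1, this does not show that #1 left a gene at its scramble level.

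Hairpin #3 differed between its arrays. Over both days 32 of the 41 genes were lower against scramble (59.1% of all genes), with a median of -0.14 (all genes -0.07). In limma PLK1 had -0.69 (SE 0.23, adjusted p = 0.405), CDC25B -0.61 (SE 0.21, 0.422) and CCNB1 -0.61 (SE 0.26, 0.527). None passed (0.0311% of all genes), and these 3 were lower at an unadjusted p under 0.05 (3.15% of all genes). Both #3 arrays lay below both scramble arrays for 15 genes, against 18.8% of all genes. From day 2 to day 5 within #3, 33 of the 41 genes were lower, with a median of -0.25 and 13 genes lower by more than 0.5 log2, against 57.7% and 9.95% of all genes. In scramble 24 were lower from day 2 to day 5 (median -0.07), in #1 17 (0.07) and in #10 16 (0.09). CDK2 in these #3 arrays went from 9.03 to 7.72. Without both arrays whose CDK2 level went against the label, CCNB1 was past the threshold in #3 against scramble at -1.37 (adjusted p = 0.046, 4.31% of all genes). That value compares 1 array of #3 at day 5 with 1 of scramble at day 2, with the day taken from #1 and #10 and 1 residual degree of freedom, so it is no replicated call. Without #3 at day 5, 19 genes were lower in #3, with a median of 0.01, and without the array labelled #3 at day 2, 34 with -0.26.

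Differences between hairpins were tested directly, in comparisons that share arrays with those above and so are no separate support. All 41 genes were lower in #10 than in #1 (59.0% of all genes), with a median of -0.44 (all genes -0.08). In limma PLK1 had -1.05 (SE 0.23, adjusted p = 0.0996), CCNB1 -0.999 (SE 0.26, 0.141) and CDC20 -0.92 (SE 0.27, 0.167). None passed (0.327% of all genes), and 19 were lower at an unadjusted p under 0.05 (4.71% of all genes). Both #10 arrays lay below both #1 arrays for 36 of the 41, against 39.1% of all genes. Without either #3 array, KIF20A, PLK1 and UBE2C passed (adjusted p = 0.034, 0.033 and 0.038, 4.76% of all genes), and without both arrays whose CDK2 level went against the label 13 did (12% of all genes). At an unadjusted p under 0.05 the 19 became 4 without #1 at day 5 and 6 without #10 at day 2.

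Against #3, the #10 arrays were lower for 40 of the 41 genes (51.0% of all genes, median -0.33 against 0.00), MKI67 being the exception at 0.12. Without the array labelled #3 at day 2, 31 were lower with a median of -0.12, without #10 at day 2, 37 with -0.20, and without both arrays whose CDK2 level went against the label, 28 with -0.12. MAD2L1 had -0.65 (SE 0.21, limma adjusted p = 0.799), CDC20 -0.64 (SE 0.27, 0.849) and AURKB -0.60 (SE 0.32, 0.900). None passed (0% of all genes), and 6 were lower at an unadjusted p under 0.05 (2.55% of all genes). Between #3 and #1, 29 of the 41 were lower in #3 (54.5% of all genes, median -0.18 against -0.04), PLK1 by -0.73 (SE 0.23, limma adjusted p = 0.307), CDC25B by -0.66 (SE 0.21, 0.310) and KIF4A by -0.59 (SE 0.26, 0.432). Again none passed (0%), with 3 lower at an unadjusted p under 0.05 (2.89% of all genes). Without both arrays whose CDK2 level went against the label, PLK1 stood at -1.07 and TPX2 at -1.06. This leaves 1 array of #3, so neither is a replicated call. The median was -0.40 without the array labelled #3 at day 2, -0.28 without #1 at day 2, -0.11 without #1 at day 5 and -0.01 without #3 at day 5.

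The 3 hairpins, as repeats, against the lone scramble array of a day gave wide errors, since the hairpins differed. At day 2, 33 of the 41 genes were lower (46.8% of all genes) with a median of -0.18 (all genes 0.02). This rested on #10: without it 23 were lower with a median of -0.01, CCNB1 at -0.51, CDC20 at -0.28 and PLK1 at -0.33, and without the array labelled #3 31 were lower with -0.32. CCNB1 had -0.85 (SE 0.51, interval -2.05 to 0.35), CDC20 -0.68 (SE 0.51) and PLK1 -0.58 (SE 0.53), each with a limma adjusted p of 1.00. At day 5, 32 were lower (60.8% of all genes) with a median of -0.24 (all genes -0.09), CDC20 having -0.70 (SE 0.51), KIF20A -0.61 (SE 0.44) and CDC25B -0.60 (SE 0.40), each with an adjusted p of 0.913. The day 5 median was -0.16 without #10 and -0.38 without #1. None passed at either day (0% of all genes each). At an unadjusted p under 0.05 there were 0 lower at day 2 (3.23% of all genes) and 1 at day 5 (0.389%), CENPE at -0.49 (SE 0.20).

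Between day 2 and day 5 no direction was shared by most genes in every setting. The knockdown difference moved by a median of 0.03 (all genes -0.04), with 19 of the 41 lower, but by -0.14 with 31 lower after quantile normalization, by -0.20 with 30 lower without #10 at day 2, by -0.14 with 29 without #1 at day 5 and by 0.14 with 14 without the array labelled #3 at day 2. It moved by most for PRC1 (-0.61, SE 0.50), MAD2L1 (0.49, SE 0.48) and ANLN (-0.48, SE 0.47). Day 5 against day 2 in shCDK2 had a median of -0.06 (all genes -0.03), with 29 lower, and 0.03 with 16 lower without #10 at day 5, 0.02 with 19 without #1 at day 2 and 0.03 with 20 without the array labelled #3 at day 2. It was -0.19 without #10 at day 2 and -0.18 without #1 at day 5, with 38 lower in each. The main values had CDC25C (-0.28, SE 0.20), CDC20 (-0.27, SE 0.36) and BUB3 (0.25, SE 0.21) at their ends. In limma every adjusted p of these members was 1.00 in both comparisons. None passed in either (0% of all genes), and 0 were lower at an unadjusted p under 0.05, against 0.265% of all genes for the difference and 0.67% for the days.

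Other genes of the pathway came from lists that hold none of the 42. In #10 against scramble 61.3% of all genes were lower, with a median of -0.09, and 2.01% passed in limma in either direction. Beside that share, 1 or 2 called members are no result about a list. Of 73 other mitotic genes tested, 64 were lower, with a median of -0.35, and 2 passed in limma. CCNA2, the cyclin of S phase and G2, fell by 1.14 (SE 0.20, adjusted p = 0.044), and SKA3, of a complex that tracks microtubule ends, fell by 0.89 (SE 0.17, 0.049). Of 14 MuvB, FOXM1 and MYBL2 regulators 9 were lower (64.3%, near the share of all genes, median -0.30) and 5 higher, and FOXM1, a transcription factor of mitotic promoters, fell by 1.39 (SE 0.22, adjusted p = 0.037). Of 43 DNA replication genes 40 were lower (median -0.50), with array medians of -0.25 in #3 on each day against -0.62 and -0.40 in #10, and CDC45, of the replication helicase, fell by 0.92 (SE 0.17, adjusted p = 0.047). In #1 these lists had medians of -0.02, -0.06 and -0.05, and in #3 -0.13, -0.12 and -0.26. In limma 0 members were called in either (0% of all genes in #1 and 0.0311% in #3). At an unadjusted p under 0.05, 0, 1 and 0 were lower in #1 (0.958% of all genes) and 9, 1 and 2 in #3 (3.15%).

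Brighter members had somewhat larger decreases in #10. Over the 41 genes the mean level and the change had a Pearson r of -0.33 and a Spearman rho of -0.34, across genes that share arrays and are not independent. The 12 members with a mean above 10 log2 had a median of -0.55, and the other 29 had -0.38. For all 1783 genes above 10 log2 it was -0.15.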

How the data were processed

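As deposited by the authors, the data were log2 signals of 49395 probe sets on 8 arrays. The submitters' processing notes name Partek, with version and normalization not given in the sources used here. The log2 scale was read from the range of the deposited values. Probe sets were paired with genes by GEO's platform annotation (44994 with 1 gene, 1832 with several and 2569 with none), and symbols were updated by Entrez ID in RefSeq (44967 found). Values were used as deposited. A gene was tested if its mean exceeded 5.83 log2, the 40th percentile over probe sets, in limma 3.58.1 (R 4.3.3), two-sided, with Benjamini-Hochberg adjustment over all 12845. Comparisons within a day came from a mean per arm and day (4 residual degrees of freedom, prior 3.13), those of a hairpin from construct and day (3, prior 4.54). A lone array was assumed to vary as the others do. The number of arrays limits the precision. The fit was tested on simulated data.

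Members and lists were chosen with earlier results of these data known. Full statistics were given to called members or, with fewer than 3 called, to the 3 with the largest change. Signals in every array were given for the brightest and the most changed member of each role in #10. Summed list levels are log2 of summed linear signals. The replicate numbers are hairpin numbers. Arrays of a hairpin thus share their construct across the days. Deviations from the hairpin mean correlated between days by 0.72 for #1, -0.23 for #3 and 0.43 for #10. Those of #10 at day 2 correlated more with #3 at day 5 (0.57). Those of the array labelled #3 at day 2 were positive only with #1 at day 5 (0.32). The main fit of a mean per arm and day left the pairing by construct out, and a block for construct was run as an alternative. The fits of a hairpin held construct as a term.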

Additional observations from a re-analysis of the deposited data

How the results depend on the processing

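All 10 comparisons kept 0 called members in limma except those named here. Against scramble, #10 gave 1 called member with the mean of probe sets and 13 without both arrays whose CDK2 level went against the label, an alternative chosen after seeing the data, and 0 to 7 with single arrays left out. That alternative gave 13 for #10 against #1, 9 for #3 against #1 and 1 for #3 against scramble. With single arrays left out, #10 against #1 gave 0 to 3. Members lower at an unadjusted p under 0.05 in #10 were 22 with the mean of probe sets, 24 without both arrays and 8 to 22 with single arrays left out; for #10 against #1 the range was 4 to 27. The median of #10 against #1 was -0.56 after quantile normalization, -0.40 after median centring, and -0.55 to -0.37 with single arrays left out. In #1, 11 members were lower after quantile normalization (median 0.11), the median was -0.0022 after median centring, -0.0794 without both arrays and -0.0835 to 0.0864 with single arrays left out. CCNB2 in #1 ran from -0.0198 (without #1 at day 5) to 0.641 with single arrays left out. In #3 the members lower ran from 19 to 34 with single arrays left out. The change of the knockdown difference had 31 lower after quantile normalization and 14 to 30 with single arrays left out, day 5 against day 2 had 16 to 38. The causes were not tested. Without both arrays, scramble and #3 had 1 array each, so counts that use either are no replicated calls. Genes called in #10 over all genes numbered 363 after quantile normalization, 82 after median centring, 960 without either #3 array, 0 without either scramble array and 2056 without both arrays. Against scramble at day 2 the members' median ran from -0.32 to -0.01 with single arrays left out, and for #10 against #3 from -0.43 to -0.12. With the construct as a replicate block, the members' median was -0.18 at day 2 and -0.24 at day 5, and 0 passed.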
